A study of Mus musculus with 8 samples.

Results

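The 10 genes described here encode the main apolipoproteins that the liver puts on plasma lipoproteins, *Apoa1*, *Apoa2*, *Apoa4*, *Apoa5*, *Apob*, *Apoc1*, *Apoc3*, *Apoe* and *Apom*, together with *Mttp*, the transfer protein that loads lipid onto nascent apolipoprotein B. They were chosen by symbol as a functional group, with earlier results of these data known, and all 10 had a row among the 46078 gene identifiers counted and passed the filter that left 13856 genes to test. Poly(A)-enriched RNA was sequenced from the livers of 4 LWT mice (Alb_cre- Rbfox2 LoxP/LoxP) and 4 LΔRbfox2 mice (Alb_cre+ Rbfox2 LoxP/LoxP), with 1 library per liver. Every mouse thus carried floxed Rbfox2 alleles, and the groups differ in Cre driven by the albumin promoter, which acts in hepatocytes and leaves Rbfox2 in the other cells of the liver. Mice entered the diet groups at 8 weeks of age, the labels give 12 weeks on the control (chow) diet where the study's methods give a longer time, and livers were taken after a 16 h fast. The comparison asks how far loss of this splicing factor from hepatocytes went with altered mRNA levels of the lipoprotein genes.

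Apolipoprotein B is the structural protein that stays with a VLDL particle, and microsomal triglyceride transfer protein (*Mttp*) adds lipid to it in the endoplasmic reticulum of the hepatocyte. The smaller apolipoproteins exchange between particles in plasma: apolipoproteins A-I, A-II and M are carried mainly by HDL, C-III slows and A-V promotes triglyceride clearance, and E is the ligand by which remnants are taken up. Many of these genes lie side by side, and on GRCm38 *Apoa1* (chr9:46228580-46230466, plus strand), *Apoc3* (chr9:46232933-46235636, minus), *Apoa4* (chr9:46240696-46243459, plus) and *Apoa5* (chr9:46268633-46271919, plus) form 1 cluster. *Apoc1* (chr7:19689481-19692660) and *Apoe* (chr7:19696109-19699188) lie on the minus strand of chromosome 7 in another, with *Apoc2* and *Apoc4*. The remaining members stand alone: *Apoa2* (chr1:171225054-171226379, plus), *Apob* (chr12:7977648-8016835, plus, 29 exons), *Apom* (chr17:35128997-35132050, minus) and *Mttp* (chr3:138089854-138144968, minus, 18 exons).

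The promoters of 4 members are shown as examples of how the mRNAs varied from liver to liver: *Apob* moved against *Apoa2* and *Apoa5*, and *Mttp* hardly varied. Each sequence runs from 250 bases before to 50 after the RefSeq start site on the coding strand of GRCm38.p6, with matches to TATAAA or CCAAT on either strand in capitals. They cover chr12:7977427-7977726 (*Apob*), chr1:171224804-171225103 (*Apoa2*), chr9:46268383-46268682 (*Apoa5*) and, on the minus strand, chr3:138143369-138143668 (*Mttp*).
Apob: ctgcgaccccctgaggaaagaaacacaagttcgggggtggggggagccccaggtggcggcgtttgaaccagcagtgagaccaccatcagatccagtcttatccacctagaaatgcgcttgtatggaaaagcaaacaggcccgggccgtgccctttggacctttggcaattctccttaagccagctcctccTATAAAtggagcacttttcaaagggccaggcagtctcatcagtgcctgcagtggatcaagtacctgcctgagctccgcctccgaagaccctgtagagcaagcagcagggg
Apoa2: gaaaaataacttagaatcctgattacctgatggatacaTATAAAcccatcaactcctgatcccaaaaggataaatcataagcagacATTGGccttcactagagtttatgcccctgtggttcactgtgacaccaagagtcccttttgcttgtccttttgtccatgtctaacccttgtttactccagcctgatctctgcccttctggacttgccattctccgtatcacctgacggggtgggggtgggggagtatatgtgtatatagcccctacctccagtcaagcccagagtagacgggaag
Apoa5: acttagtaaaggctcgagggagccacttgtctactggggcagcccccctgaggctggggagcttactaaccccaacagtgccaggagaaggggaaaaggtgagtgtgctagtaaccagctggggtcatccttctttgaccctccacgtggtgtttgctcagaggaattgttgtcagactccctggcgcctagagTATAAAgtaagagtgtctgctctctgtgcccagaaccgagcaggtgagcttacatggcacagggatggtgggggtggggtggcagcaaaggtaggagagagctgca
Mttp: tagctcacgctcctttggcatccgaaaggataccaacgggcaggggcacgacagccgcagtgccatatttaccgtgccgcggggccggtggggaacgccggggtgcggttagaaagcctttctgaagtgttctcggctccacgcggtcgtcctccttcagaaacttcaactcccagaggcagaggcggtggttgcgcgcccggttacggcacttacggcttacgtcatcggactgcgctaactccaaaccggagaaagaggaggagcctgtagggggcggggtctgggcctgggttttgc

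TATAAA stood at −60 from the start in *Apob*, at −56 in *Apoa5* and at −212 in *Apoa2*, counted to its first base, and it was found in 3 of the 8 member promoters against 13.6% of 32851 promoters of this length in the RefSeq table. CCAAT was found in 1 of 8 (reversed, in *Apoa2*) against 37.4%. GTTAAT, part of the site of the liver factor HNF1, and the HNF4-type runs CAAAGTCCA and CAAAGGTCA were in none of the 8, against 7.1%, 0.475% and 0.478% of all promoters. No match overlapped another, and the *Mttp* window held none of the searched letters.

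RBFOX proteins bind RNA at UGCAUG, so the longest principal transcript of each gene in GENCODE M21 was searched for TGCATG on the coding strand. The letters occurred in 2 of 10 members, once in *Apob* and once in *Mttp*, and in 54.1% of 12145 principal transcripts of tested genes. The other member mRNAs, most of them short, held none. Per kb, the 12145 transcripts held 0.281 on average, *Mttp* 0.25 and *Apob* 0.07. Both sites lie in coding exons, in exon 23 of 29 of *Apob* (chr12:8002159-8002188, plus strand) and in exon 17 of 18 of *Mttp* (chr3:138092596-138092625, minus strand), and are printed with the letters in capitals.
Apob site: atcctagaatgtTGCATGagtatgccaatg
Mttp site: ccgttcttggtcTGCATGcagatggacaag

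Total counts per liver lay between 37482458 and 56177588, and the 10 genes together took 2.34% to 3.78% of each library. Major urinary protein mRNAs took 21.6% to 43.8%, and levels are therefore given as CPM, counts scaled to library size with TMM factors, which ran from 0.724 to 1.141. The lowest factors were those of LΔRbfox2 livers 3 and 4 (0.724 and 0.776), against 1.022 to 1.141 in the other livers. A low factor raises the CPM of a liver relative to library totals, so the order of livers in CPM depends on this scaling. *Rbfox2* was at 17.1, 10.4, 11.4 and 18.3 CPM in LWT livers 1 to 4 and at 4.61, 6.09, 2.24 and 3.19 CPM in LΔRbfox2 livers 1 to 4. All LΔRbfox2 livers lay under all LWT livers (log2 fold change −1.82; edgeR adjusted *P* = 0.504, DESeq2 adjusted *P* = 2.3e-04). The defining markers of liver were present, as 6 matched hepatocyte markers summed to between 46947 and 72946 CPM, and the small-intestine markers *Cdx1*, *Cdx2*, *Lct*, *Sis* and *Vil1* had at most 3 counts in any liver. These mark the intestine, the other main source of *Apob*, *Apoa4* and *Mttp*. Of the same list, *Muc2* had at most 4 counts, and *Fabp2*, which binds fatty acids, was at 50.1 to 232 CPM. Summed Kupffer cell markers were at 65.6 to 114 CPM in LWT and 37.9 to 73.5 CPM in LΔRbfox2 livers, with a lower LΔRbfox2 mean in 6 of 7 markers, and summed erythroid markers were at 382 to 729 and 627 to 1525 CPM, with a higher LΔRbfox2 mean in 5 of 5. Cholangiocyte markers summed to 14.7 to 25.9 and 16.6 to 61.2 CPM, higher in 6 of 6, sinusoidal endothelial markers to 75.4 to 102 and 65.6 to 86.4 CPM, lower in 5 of 6, and stellate cell markers to 71.8 to 140 and 92.0 to 136 CPM, higher in 4 of 7. Their part in the results was not tested, and in whole liver fewer cells of a type and less RNA per cell cannot be told apart.

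None of the 10 genes passed an adjusted *P* of 0.05 in edgeR's quasi-likelihood test, as none of the 13856 genes tested did (0%), and none was among the 10 genes that DESeq2 called (0.0722% of 13844). At an unadjusted *P* under 0.05, *Apoa4*, *Apoc1* and *Apom* were higher in LΔRbfox2 livers, which is 3 of 10 members against 7.95% of all genes. No member was lower at this level, against 1.83% of all genes. In all 10 genes the values of the genotypes overlapped, whereas the genotypes were separate, higher in LΔRbfox2 livers, in 1.05% of all genes and, lower, in 1.23%. The fitted fold change was above 0 in 7 members and below 0 in 3, with a median of 0.33 on the log2 scale against −0.015 over all genes. With single livers left out, the members' median ran from 0.169 (without LWT liver 1) to 0.461 (without LWT liver 2). With library totals in place of TMM factors, the medians of the members and of all genes were 0.059 and −0.23. With a correction of each library for gene length they were 0.021 and −0.026. At an unadjusted *P* under 0.05, 1102 of all genes were higher and 254 lower with TMM factors, 829 and 338 with upper-quartile factors and 203 and 393 with library totals. An exact permutation test of 4 livers against 4 cannot give a *P* below 0.0286.

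**Figure D1:**
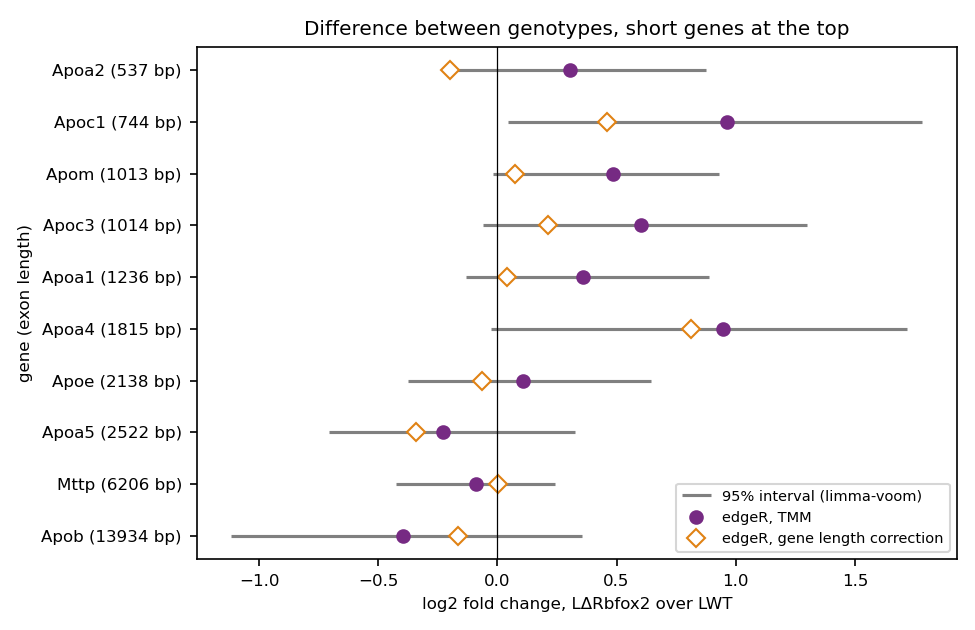
The x axis gives the log2 fold change of LΔRbfox2 over LWT livers (n = 4 each) and the y axis the 10 genes with their exon length in bp, shortest at the top; filled circles are edgeR values, grey lines 95% intervals from limma-voom and open diamonds edgeR values after each library was corrected for gene length. The interval of *Apoc1* lies above 0, the other 9 include 0, and 3 diamonds lie on the other side of 0 from their circles.

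Among the HDL apolipoproteins, *Apoa1*, which forms the scaffold of HDL, was at 3735, 6243, 6357 and 5245 CPM in LWT livers 1 to 4. LΔRbfox2 livers had 6102, 5931, 8646 and 6961 CPM. LΔRbfox2 livers 3 and 4 lay, with TMM factors, above every LWT liver, and LΔRbfox2 livers 1 and 2 lay within the LWT range. The mean was 5395 ± 1214 CPM in LWT and 6910 ± 1242 CPM in LΔRbfox2 livers (SD, n = 4), a log2 fold change of 0.36 with a standard error of 0.23 (two-sided exact permutation test *P* = 0.171, edgeR adjusted *P* = 0.566). With single livers left out it ran from 0.19 (without LWT liver 1) to 0.45, and with library totals it was 0.090. *Apoa2*, the second HDL protein, was at 2367, 4406, 3574 and 2856 CPM in LWT and at 3603, 3112, 4664 and 4914 CPM in LΔRbfox2 livers. Its order of livers was close to that of *Apoa1*, with LWT liver 1 lowest, and a log2 fold change of 0.30 (standard error 0.25) was fitted (exact permutation *P* = 0.229, edgeR adjusted *P* = 0.618), from 0.15 without LWT liver 1 to 0.48 without LWT liver 2.

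*Apom*, the lipocalin that binds sphingosine 1-phosphate on HDL, showed the tightest LWT values of the apolipoproteins. It was at 103, 116, 117 and 99.8 CPM in LWT livers. LΔRbfox2 livers 1, 3 and 4 had 180, 167 and 167 CPM, and LΔRbfox2 liver 2 had 96.7 CPM, the lowest of all 8 livers. LΔRbfox2 livers 1, 3 and 4 thus stood, with TMM factors, above the LWT range and liver 2 just below it. The means of 109 ± 8.87 and 153 ± 37.8 CPM (SD, n = 4) gave a log2 fold change of 0.49 with a standard error of 0.21 (exact permutation *P* = 0.143, edgeR adjusted *P* = 0.504). With single livers left out it ran from 0.40 (without LΔRbfox2 liver 1) to 0.65 (without LΔRbfox2 liver 2), with edgeR adjusted *P* from 0.0834 to 0.91. With library totals it was 0.24 and after a correction of each library for gene length 0.072.

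*Apoc3*, the inhibitor of triglyceride clearance, was at 734, 1317, 851 and 598 CPM in LWT livers and at 1267, 774, 1635 and 1639 CPM in LΔRbfox2 livers. LΔRbfox2 livers 3 and 4 exceeded, with TMM factors, every LWT liver. LΔRbfox2 liver 1 sat near the highest LWT liver, and LΔRbfox2 liver 2 lay among the low ones. A log2 fold change of 0.60 (standard error 0.31) was fitted (exact permutation *P* = 0.143, edgeR adjusted *P* = 0.521), and with library totals it was 0.31. *Apoa5*, which promotes clearance by lipoprotein lipase, was at 1075, 1989, 1465 and 1142 CPM in LWT and at 1214, 965, 1433 and 1228 CPM in LΔRbfox2 livers. The LΔRbfox2 livers, all but one, lay inside the LWT range (log2 fold change −0.23, standard error 0.23, exact permutation *P* = 0.457, edgeR adjusted *P* = 0.674), and the fold change was −0.014 without LWT liver 2 and −0.48 with library totals. Within each liver, the ratio of *Apoc3* to *Apoa5* per kb of exon was 1.70, 1.65, 1.44 and 1.30 in LWT livers and 2.60, 1.995, 2.84 and 3.32 in LΔRbfox2 livers. This ratio, 1 of 5 between members that were computed with the levels known and not tested, was higher in each LΔRbfox2 liver than in each LWT liver. It is the only one of the 5 whose genotypes did not overlap. How often ratios of other gene pairs separate the genotypes was not examined, so nothing particular to this pair is read from it. With the gene length correction the fold changes of the pair were 0.21 and −0.34.

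*Apoa4*, a fasting-responsive apolipoprotein of triglyceride-rich particles, had the widest range of the members, 5.63-fold from the lowest to the highest liver. It was at 508, 778, 438 and 1018 CPM in LWT livers and at 970, 2466, 1145 and 701 CPM in LΔRbfox2 livers. LΔRbfox2 liver 2 stood far above the rest, and the other three spanned the upper part of the LWT range and just beyond. The means of 685 ± 266 and 1320 ± 785 CPM (SD, n = 4) gave a log2 fold change of 0.95 with a standard error of 0.39 (exact permutation *P* = 0.143, edgeR adjusted *P* = 0.504). With single livers left out it ran from 0.45 (without LΔRbfox2 liver 2, edgeR adjusted *P* = 0.360) to 1.20 (without LWT liver 4, adjusted *P* = 0.899). The antisense gene *Gm10680* shares 34.8% of the exon bases of *Apoa4*, and since the strand setting of the counting was not given in the sources used here, reads in the overlap are uncertain. Its counts were 100 to 766 per liver against at least 19446 for *Apoa4*, and it was at 1.78 CPM, its lowest value, in the liver where *Apoa4* was highest. On the opposite strand, *Gm47528*, a gene still to be experimentally characterised, shares 34.9% of the *Apoa4* exon bases and the antisense gene *Gm47544* 20.8% of those of *Apoa5*, and neither was analysed here.

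*Apoe*, the ligand for remnant uptake, had the most counts of the members and, with TMM factors, the fold change nearest 0 among the apolipoproteins. With the gene length correction *Apoa1* (0.040) was nearer 0, and with library totals *Apoa2* (0.027) was. It was at 8398, 14551, 12407 and 9410 CPM in LWT livers and at 11579, 9892, 14296 and 12496 CPM in LΔRbfox2 livers. Every LΔRbfox2 value lay within the LWT range. The log2 fold change was 0.11 with a 95% interval from −0.37 to 0.65 (exact permutation *P* = 0.571, edgeR adjusted *P* = 0.840), and it was −0.15 with library totals alone. *Apoc1*, its neighbour and a small exchangeable apolipoprotein, was at 1250, 2434, 1703 and 1085 CPM in LWT livers and at 3088, 1321, 3509 and 4704 CPM in LΔRbfox2 livers. Apart from LΔRbfox2 liver 2, which lay among the lowest, the LΔRbfox2 livers were, with TMM factors, above every LWT liver. The means of 1618 ± 603 and 3155 ± 1402 CPM (SD, n = 4) differed 1.95-fold, a log2 fold change of 0.96 with a 95% interval from 0.05 to 1.78 (exact permutation *P* = 0.114, edgeR adjusted *P* = 0.504). With single livers left out it ran from 0.71 (without LΔRbfox2 liver 4, edgeR adjusted *P* = 0.91) to 1.24 (without LWT liver 2, adjusted *P* = 0.232), and the smallest adjusted *P* was 0.0834 without LΔRbfox2 liver 2. With the replicate block it was 0.93 (edgeR adjusted *P* = 0.831).

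The genes that complete the chromosome 7 cluster had fold changes near that of *Apoc1*. *Apoc2*, the cofactor of lipoprotein lipase, was at 109, 195, 125 and 110 CPM in LWT livers and at 284, 157, 292 and 378 CPM in LΔRbfox2 livers (log2 fold change 1.04, edgeR adjusted *P* = 0.504). *Apoc4* was at 266, 491, 326 and 225 CPM in LWT and at 656, 319, 749 and 961 CPM in LΔRbfox2 livers (log2 fold change 1.04, edgeR adjusted *P* = 0.504). In both genes LΔRbfox2 liver 2 was again the one inside the LWT range. Across the 21 alternative analyses and left-out livers, *Apoc2* and *Apoc4* kept an unadjusted *P* under 0.05 in 21 of 21, and *Apoc1* in 11 of 21. The adjusted *P* never went below 0.0834 for any of them. *Apoc2* and *Apoc4* were named for their small unadjusted *P*, and the alternatives reuse the same livers. These counts are therefore a description and not independent support. With the gene length correction the fold changes were 0.59 for *Apoc2*, 0.91 for *Apoc4*, 0.46 for *Apoc1* and −0.063 for *Apoe*, the only one of the 4 that changed sign. Of the erythroid markers, *Hbb-bs*, named after its values were seen, was at 152, 220, 143 and 87.0 CPM in LWT and at 301, 163, 453 and 646 CPM in LΔRbfox2 livers, with LΔRbfox2 liver 2 inside the LWT range. *Hba-a1* had another order, with LΔRbfox2 liver 2 (171 CPM) above every LWT liver (101 to 167 CPM), and *Alas2* in LΔRbfox2 liver 4 (46.0 CPM) lay inside the LWT range of 42.1 to 47.7 CPM. The part of these markers was not tested.

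For the core of VLDL, *Apob* was at 4553, 2089, 2797 and 4889 CPM in LWT livers. LΔRbfox2 livers had 2956, 3759, 1689 and 2485 CPM. LWT livers 1 and 4 were highest, followed by LΔRbfox2 liver 2, and the low end was shared between genotypes. The means of 3582 ± 1354 and 2722 ± 867 CPM (SD, n = 4) gave a log2 fold change of −0.40 with a 95% interval from −1.12 to 0.35 (exact permutation *P* = 0.371, edgeR adjusted *P* = 0.622), and with single livers left out it ran from −0.59 to −0.21 (without LWT liver 4). *Mttp* was at 203, 218, 239 and 207 CPM in LWT and at 193, 226, 187 and 209 CPM in LΔRbfox2 livers, with a coefficient of variation of 7.4% and 8.5%. It was the steadiest of the 10 genes, with a log2 fold change of −0.091 and a 95% interval from −0.42 to 0.24 (exact permutation *P* = 0.314, edgeR adjusted *P* = 0.787). The fold change was −0.30 with library totals and ran from −0.145 to −0.037 (without LWT liver 3) with single livers left out. At its 5′ end 7.4% of the *Mttp* exon bases are shared with *Trmt10a* on the opposite strand, which had 104 to 190 counts per liver, and *Gm43691*, with at most 5 counts, shares 2.1%. The ratio of *Apob* to *Mttp* per kb of exon was 9.97, 4.26, 5.21 and 10.52 in LWT and 6.81, 7.41, 4.02 and 5.31 in LΔRbfox2 livers, so it followed *Apob*.

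**Figure D2:**
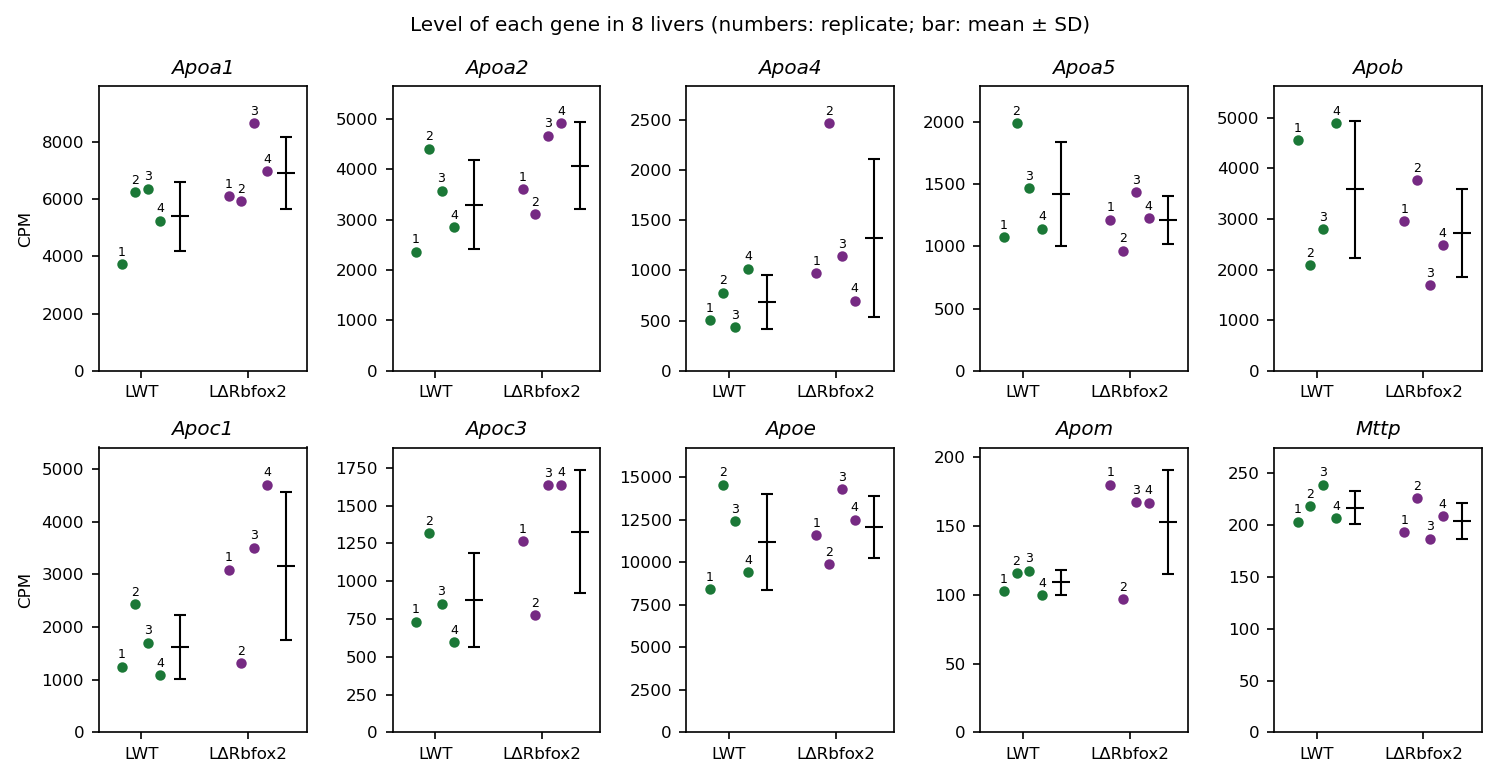
Each panel gives the level of 1 gene in CPM (y axis, from 0) in the LWT and LΔRbfox2 livers (x axis); points are livers with their replicate number, and the black bars are mean ± SD (n = 4). The genotypes overlap in every panel, and LΔRbfox2 liver 2 is the lowest LΔRbfox2 liver for *Apoc1*, *Apoc3* and *Apom* and the highest for *Apoa4* and *Apob*.

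The members varied together from liver to liver within both genotypes. The 3 livers highest in *Apob*, LWT livers 1 and 4 and LΔRbfox2 liver 2, were the 3 lowest livers for 7 of the 10 members, namely *Apoa1*, *Apoa2*, *Apoa5*, *Apoc1*, *Apoc3*, *Apoe* and *Apom*. *Apoa4* and *Mttp* had other orders. After removal of the group means, log2 CPM of *Apob* correlated over the 8 livers with *Apoe* at r = −0.96, with *Apoa5* at −0.95 and with *Apoa2* and *Apoc3* at −0.89, and *Apoa5* with *Apoe* at 0.98. *Mttp* had r between −0.46 and 0.16 with every other member, and *Apoa4* was negative with *Apom* (−0.78) and *Apoc1* (−0.71). These are descriptions over libraries that share depth and scaling, and the same 3 livers also had the lowest values on the first principal component of all genes (−0.50, −0.46 and −0.30), which held 54.1% of the variance.

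**Figure D3:**
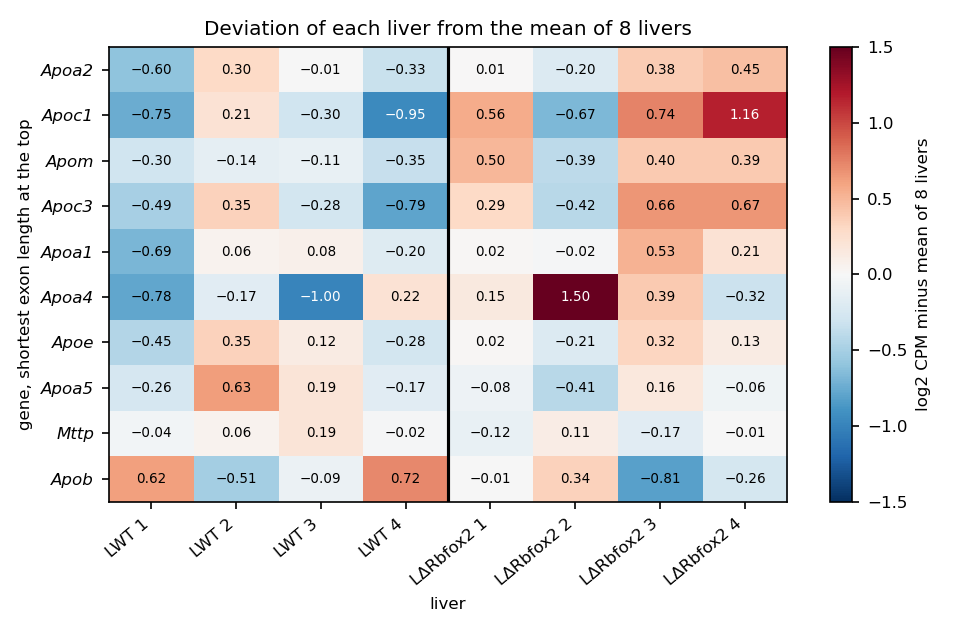
Colours and numbers give log2 CPM of each gene (y axis, shortest exon length at the top) minus its mean over 8 livers, for each liver (x axis, LWT left of the black line). LWT livers 1 and 4 and LΔRbfox2 liver 2 are low in 7 genes and high in *Apob* (0.62, 0.72 and 0.34), and *Apoa4* stands at 1.498 in LΔRbfox2 liver 2.

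Exon length, the summed length of a gene's annotated exons, orders the members much as their fold changes do. It counts all annotated transcripts and can exceed the main mRNA, as in *Apoc3*, with 1014 bp against 526 bp for the principal transcript. The length comparisons and the length correction used exon length only. The members run from 537 bp (*Apoa2*) and 744 bp (*Apoc1*) to 6206 bp (*Mttp*) and 13934 bp (*Apob*), and Spearman's rho of length with log2 fold change was −0.72 over the 10 genes and −0.39 over 13806 tested genes with a length. Over all genes, the median log2 fold change was 0.49 in the 1032 genes of up to 1 kb and −0.20 in the 2226 genes over 8 kb. In the same length classes, the medians of single livers about the 8-liver mean were −0.42, −0.40 and −0.38 (short genes) and 0.36, 0.30 and 0.22 (long genes) in LWT liver 1, LWT liver 4 and LΔRbfox2 liver 2. In LΔRbfox2 livers 3 and 4 they were 0.45 and 0.65 (short) and −0.37 and −0.22 (long). In LWT livers 1 and 4 and LΔRbfox2 liver 2, *Apob* and the short members *Apoa2* and *Apoc1* thus deviated in the direction of their length class. After each library was corrected for gene length, the median of the 10 fold changes was 0.021 and no member had an unadjusted *P* under 0.05. The corrected values were 0.040 for *Apoa1*, −0.20 for *Apoa2*, 0.072 for *Apom*, 0.21 for *Apoc3*, −0.16 for *Apob* and 0.0016 for *Mttp*. *Apoa4*, at 0.81, moved least among the members with a fold change above 0.4. What gave rise to the length pattern was not tested.

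**Figure D4:**
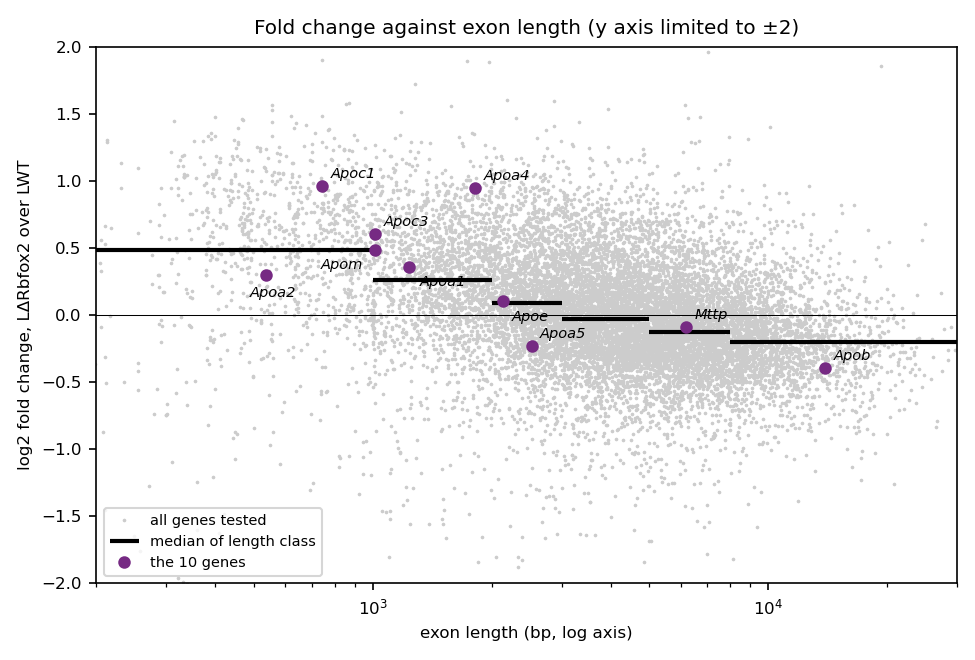
The x axis gives exon length (bp, log axis) and the y axis the log2 fold change of LΔRbfox2 over LWT livers, limited to ±2; grey points are all genes tested, black bars the median of each length class and purple points the 10 genes. The medians go from 0.49 in the shortest class to −0.20 in the longest, with *Apoa2* and *Apoc1* at the short end and *Apob* at the long end.

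To compare levels between genes, CPM were divided by exon length in kb. On this scale the order of the means over 8 livers was *Apoa2* (6865), *Apoe* (5439), *Apoa1* (4978), *Apoc1* (3208), *Apoc3* (1087), *Apoa4* (552), *Apoa5* (521), *Apob* (226), *Apom* (129) and *Mttp* (33.9). *Apoa2* exceeded *Apoe* in 8 of 8 livers, *Apoe* exceeded *Apoa1* in 6 and *Apoa1* exceeded *Apoc1* in 7. *Apoa4* and *Apoa5* exchanged places, with *Apoa4* higher in 4 of 8 livers. Their order differed between the genotype means, at 378 (*Apoa4*) and 562 (*Apoa5*) in LWT and 727 and 480 in LΔRbfox2 livers. Only 2 steps of the order had ranges that did not overlap, from *Apoa5* to *Apob* and from *Apom* to *Mttp*. *Apob* was above *Apom* in 7 livers, the exception being LΔRbfox2 liver 3. Exon length counts all annotated transcripts, and it exceeds the principal transcript 1.93-fold in *Apoc3*, 1.57-fold in *Mttp*, 1.52-fold in *Apoe* and 1.40-fold in *Apoc1*, but not in *Apob*, *Apoa4* or *Apom*, so the order depends on the length used. Per kb of the principal transcript, a choice made after seeing the data, *Apoe* (8259) came before *Apoa2* (7117) and was above it in 7 of 8 livers, and the rest of the order was the same, with *Mttp* last at 53.1.

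**Figure D5:**
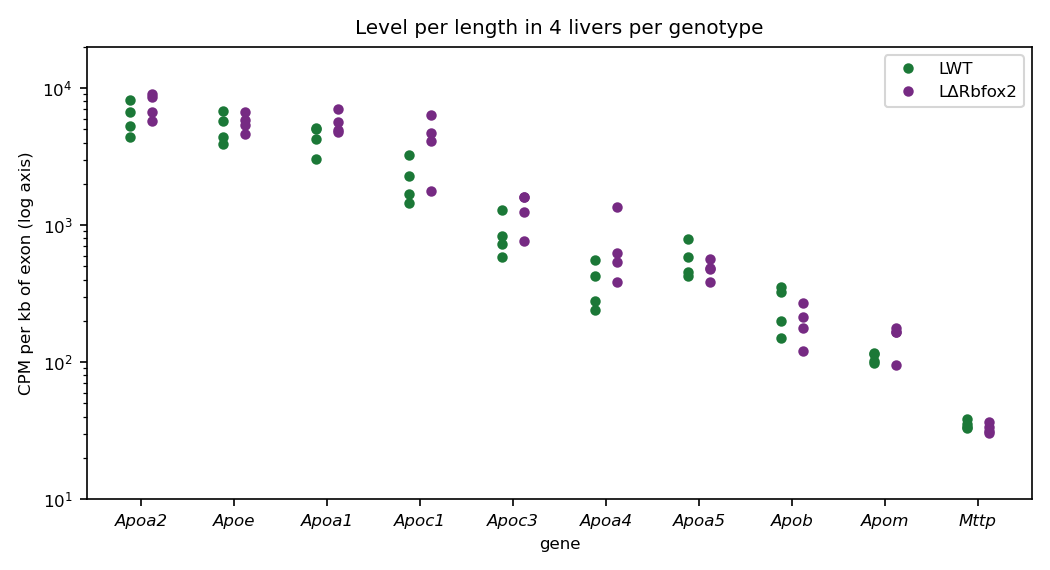
The y axis gives CPM per kb of exon (log axis) and the x axis the 10 genes in order of their mean; points are single livers, green for LWT and purple for LΔRbfox2. The levels span from 30.1 for *Mttp* to 9150 for *Apoa2*, and neighbours overlap except from *Apoa5* to *Apob* and from *Apom* to *Mttp*.

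The 5 genes whose log2 CPM, with group means removed, correlated most with *Apob* over the 8 livers were *Tbc1d24*, *Foxn3*, *Trim3*, *Setd1b* and *Camsap3*, with r from 0.993 to 0.999. Their exon lengths were 4569 to 12068 bp and their log2 fold changes −0.44 to −0.58. For *Apoa4* they were *Lrp11*, *Dmap1*, *Anapc4*, *Lamb3* and *Tdp1*, with r from 0.949 to 0.980. *Lrp11* had a log2 fold change of 0.61 at a level of 0.927 ± 0.324 CPM in LWT livers (SD, n = 4), and the other 4 were between −0.054 and 0.13.

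The other pathway genes are described by the number at an unadjusted *P* under 0.05, beside 7.95% higher and 1.83% lower over all genes tested, and by their median log2 fold change, beside −0.015. The lists are short, and nothing particular to a list is read from its count. Of 30 genes listed for VLDL assembly and secretion, 29 were tested, 0 were higher and 1 was lower at an unadjusted *P* under 0.05, with a median of −0.067 and a range from −0.52 to 0.73. That gene was *A1cf*, the RNA-binding partner of the *Apob* mRNA editing enzyme, at 78.6, 57.4, 78.9 and 71.5 CPM in LWT and 49.7, 65.4, 47.3 and 53.5 CPM in LΔRbfox2 livers (log2 fold change −0.41, edgeR adjusted *P* = 0.504). The livers overlapped, as LΔRbfox2 liver 2 exceeded LWT liver 2. *Dgat2*, which makes triglyceride, was at 235 ± 29.4 and 188 ± 8.55 CPM (SD, n = 4; log2 fold change −0.32, edgeR adjusted *P* = 0.515). *Sar1b*, the GTPase of the vesicles that export large lipoproteins, had a log2 fold change of 0.73 and *Aadac*, a lipase of the endoplasmic reticulum, one of 0.57 (edgeR adjusted *P* = 0.527 and 0.542). These were 0.40 and 0.33 without LΔRbfox2 liver 4. With the gene length correction they were 0.375 and 0.262, and with library totals 0.391 and 0.269. *Ces3a*, named after its values were seen, was the 1 gene of the 29 with separate genotypes (over all genes, 1.05% higher and 1.23% lower), at 811 to 957 CPM in LWT and 692 to 801 CPM in LΔRbfox2 livers.

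Of 9 other apolipoproteins and paraoxonases, 8 were tested, and *Apoc2* and *Apoc4* alone were at an unadjusted *P* under 0.05, both higher (all genes, 7.95% higher; median of the list 0.29). *Pon1* and *Pon3*, HDL-bound esterases, had log2 fold changes of 0.53 and 0.38 (edgeR adjusted *P* = 0.544 and 0.542), and of 0.35 and 0.22 without LΔRbfox2 liver 4. Among 12 lipases, lipid transfer proteins and their inhibitors, 1 was higher and 0 lower at an unadjusted *P* under 0.05, close to the 7.95% and 1.83% of all genes, with a median of 0.016. The one was *Lpl*, lipoprotein lipase, at 10.45, 6.83, 8.40 and 7.89 CPM in LWT and 23.4, 8.29, 12.3 and 10.6 CPM in LΔRbfox2 livers (log2 fold change 0.70, edgeR adjusted *P* = 0.504). Without LΔRbfox2 liver 1 it was 0.32. *Pltp*, the phospholipid transfer protein, was at 51.5 ± 25.9 and 31.0 ± 7.29 CPM (SD, n = 4; log2 fold change −0.73, −0.40 without LWT liver 2, edgeR adjusted *P* = 0.508). *Gpihbp1*, which anchors lipoprotein lipase to endothelium, had a log2 fold change of 0.51 (0.33 without LWT liver 4, 0.83 without LWT liver 2, edgeR adjusted *P* = 0.560), and *Angptl8*, an inhibitor of the lipase, one of 0.99 (edgeR adjusted *P* = 0.542). Without LΔRbfox2 liver 4 the value for *Angptl8* was 0.11, and the other LΔRbfox2 livers, at 8.06 to 10.4 CPM, lay within the LWT range of 3.39 to 13.2 CPM.

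Of 12 genes for lipoprotein receptors and uptake, 11 were tested. At an unadjusted *P* under 0.05, 0 were higher and 1 was lower (all genes, 7.95% and 1.83%), with a median log2 fold change of −0.12. *Lrp1*, a remnant receptor of hepatocytes with an exon length of 17717 bp, was at 499, 120, 163 and 509 CPM in LWT and at 221, 284, 85.1 and 126 CPM in LΔRbfox2 livers (log2 fold change −0.85, −0.54 without LWT liver 4, edgeR adjusted *P* = 0.552). Its highest livers were LWT livers 1 and 4 and LΔRbfox2 liver 2, as for *Apob*. Of 25 transcription regulators of apolipoprotein genes, 0 were higher and 1 was lower at an unadjusted *P* under 0.05 (all genes, 7.95% and 1.83%), and 6 were fitted higher and 19 lower (all genes, 6710 and 7146), with a median of −0.23. *Srebf2*, the activator of sterol synthesis genes, was at 19.5, 16.9, 24.9 and 33.3 CPM in LWT and 13.0, 19.7, 13.8 and 13.8 CPM in LΔRbfox2 livers (log2 fold change −0.65, edgeR adjusted *P* = 0.504). *Foxa2*, *Onecut1* and *Srebf1* had log2 fold changes of −0.48, −0.92 and −0.96 (edgeR adjusted *P* = 0.511 for each). Single livers weighed on them: *Foxa2* was at −0.32 without LWT liver 1, *Onecut1* at −0.41 without LWT liver 2 and *Srebf1* at −0.23 without LWT liver 4.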

How the data were processed

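Poly(A) RNA of 4 LWT and 4 LΔRbfox2 livers was sequenced as 100 base paired-end reads. Per the labels and the study's methods, the authors aligned reads to GRCm38 with TopHat2 2.0.11 and counted them per gene with featureCounts, whose version, strand and multi-mapping settings are not given in the sources used here. The labels give CASAVA 1.8.4, and the methods another version. The authors deposited raw counts, not normalized, for 46078 identifiers, of which 45229 matched GENCODE M21. Groups and replicate numbers come from the labels, and 0 columns were left unmatched. Each library is labelled as another liver, and no label gives an extraction or sequencing batch. No 2 livers of a genotype were copies (smallest chi-square per degree of freedom 97.8). A gene with 3 counts stands at 0.047 to 0.093 CPM, counting error only.

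Counts were compared in R 4.3.3 with edgeR 4.0.16 (filterByExpr with a minimum count of 10 and a total of 15, TMM, glmQLFit and glmQLFTest, genotype as the only term), with Benjamini–Hochberg adjustment over 13856 genes and a call at 0.05. Log2 CPM used a prior count of 2. Standard errors and 95% intervals came from limma-voom (limma 3.58.1). Alternatives were DESeq2 1.42.0 (size factors and Wald test), limma-voom, upper-quartile factors, library totals only, other filters, robust estimation, the replicate block, lowess corrections for gene length or GC content (span 0.3), *Mup* genes left out and each liver left out. Levels per kb of the principal transcript were added after seeing the data. The edgeR, limma-voom and DESeq2 steps were also run on data simulated from the means and dispersions of these counts, with results not reported here. Named genes are the 10 members, *Rbfox2*, genes overlapping a member, up to 4 genes per pathway list with the smallest unadjusted edgeR *P*, and the 5 genes closest to *Apob* and to the member of widest range. Single results for some genes that this rule names are not reported here. Members and lists were chosen with earlier results of these data known. Promoters are from the RefSeq table (GRCm38.p6), which matched 8 of 10 members. Genes outside this rule are named as markers or, where the text says so, after their values were seen. Exact permutation tests were two-sided, on log2 CPM. Descriptions were computed in Python 3.11.15 with pandas 2.3.3, numpy 2.4.6 and scipy 1.17.1, and figures drawn with matplotlib 3.10.9.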

Additional observations from a re-analysis of the deposited data

Results flagged for a closer look

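A liver set apart from the other 3 of its group by Dixon's criterion was found in 4 of 60 groups of 4 livers examined over the named genes, where chance gives about 1 in 20 (3.0). *Apom* had 96.68 CPM in LΔRbfox2 liver 2, and between 166.78 and 179.96 CPM in the rest of that group. *Srebf2* in the same liver was at 19.71 CPM, against 12.99 to 13.84 CPM. LWT liver 4 was set apart in *Srebf1*, at 55.56 CPM against 12.97 to 19.79 CPM. *Angptl8*, which feeding is known to induce, had 41.5 CPM in LΔRbfox2 liver 4 and 8.06 to 10.44 CPM in the rest of its group. *Apoa4* in LΔRbfox2 liver 2, although the highest value of its gene, did not meet the criterion.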

How the results depend on the processing

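Over 21 alternatives, no member was called in any, and adjusted *P* values of members ranged from 0.0834 to 0.996. The number of genes called over all genes was 0 in each edgeR and limma-voom setting and 10 with the DESeq2 test. Of 210 comparisons of members with their main value, 9 changed sign. *Apoa2* was at −0.20 with the gene length correction and at −0.198 with this correction and the replicate block. *Apoe* was at −0.15 with library totals only, at −0.0632 with the length correction, at −0.0525 with the correction and the replicate block, and between −0.0329 (without LWT liver 1) and 0.267 when single livers were left out. *Mttp* was at 0.00158 with the length correction and 0.011 with the block added, and *Trmt10a* at −0.023 with library totals only. The number of members at an unadjusted *P* under 0.05, 3 in the main analysis, was 0 with library totals only, the replicate block, the length correction and both together, 1 with limma-voom, and 0 to 3 when single livers were left out: 0 without LWT liver 1, LWT liver 3 or LΔRbfox2 liver 3, and 1 without LWT liver 4, LΔRbfox2 liver 1 or LΔRbfox2 liver 4. *Rbfox2* was called by DESeq2 alone (log2 fold change −1.82). Why these values moved was not tested. Same-numbered livers had correlations of their deviations of 0.13, −0.61, 0.12 and −0.51. These values show no common sign, and without those of differently numbered livers they cannot decide whether the numbers pair livers. Without LΔRbfox2 liver 2, 2343 genes were higher and 1132 lower at an unadjusted *P* under 0.05, against 1102 and 254 with it. Both counts rose without LWT liver 2 too, to 1910 and 621. They were 809 and 218 without LΔRbfox2 liver 1 and 521 and 331 without LWT liver 3. Without LWT liver 1 there were 423 and 185, and without LWT liver 4, 379 and 126. Without LΔRbfox2 liver 3 there were 396 and 154, and without LΔRbfox2 liver 4, 282 and 122. The shares of 7.95% and 1.83% given for all genes thus hold for the full set of livers.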
